A study of Caenorhabditis elegans with 53 samples.

Results

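The mir-44 family of the nematode Caenorhabditis elegans comprises the microRNAs of 4 loci, mir-44, mir-45, mir-61 and mir-247. Its members were taken as the rows of each small RNA table that are classed as microRNA and named miR-44, miR-45, miR-61 or miR-247, both arms, which gave 8 of the 439 microRNA rows listed. The rows of miR-44-3p and miR-45-3p held the same value in 47 of 47 sample columns. They are treated here as 1 quantity, called miR-44-3p, so that the family has 7 distinct rows. Low values of microRNAs listed at 2 loci under 1 name lay midway between whole steps of 1 read in 55 of 106 cases (51.9%), against 91 of 2118 (4.30%) for microRNAs listed at 1 locus, so reads of a shared sequence appear to have been divided between its loci. If so, the levels, ranks and ratios given here for miR-44-3p rest on 1 row and understate the shared sequence.

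MicroRNAs are cut from hairpins by Dicer, and an Argonaute protein keeps 1 arm as its guide while the other arm, the passenger, is mostly lost. The members of the family share a seed, the stretch of bases near the 5′ end that selects targets, and miR-44 and miR-45 have the same mature 3p sequence. In C. elegans the family promotes sperm fate in the hermaphrodite germline, and mir-61 acts downstream of the Notch receptor LIN-12, repressing vav-1 in the precursor cells of the vulva. ALG-1 and ALG-2 are the main microRNA Argonautes of the worm, RDE-1 is the Argonaute that binds primary siRNAs in RNA interference (RNAi) and also carries miR-243, and dcr-1 encodes Dicer.

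The values were RPM (read counts scaled to library size) from small RNA libraries of whole animals, Argonaute co-immunoprecipitates (co-IPs) and the lysates they came from (inputs), with 2 or 3 libraries in each of 20 labelled groups. GFP-tagged ALG-1, from the allele alg-1(ap423[3xflag::gfp::alg-1]), was precipitated from animals fed rde-1 RNAi (2 co-IPs, 2 inputs), L4440, the empty RNAi vector (2 and 2), or nrfl-1 RNAi (3 and 3). GFP-tagged ALG-2, from alg-2(tor139[GFP::3xFLAG::alg-2b]), in which the label names isoform b, was precipitated on rde-1 RNAi (2 and 2) and on L4440 (2 and 2). GFP-tagged RDE-1, an N-terminal fusion that also holds loxP and 3xFLAG (allele rde-1(cmp133)), was precipitated with no RNAi in its labels (2 and 2) and on nrfl-1 RNAi (3 and 3). Whole animals of the same GFP::RDE-1 strain were fed dcr-1 RNAi (2) or L4440 (2), and untagged whole animals were rde-1(ne219) adults of strain WM27 (3), wild-type N2 embryos of mixed stages (2) and wild-type N2 adults (3). Apart from the embryos, samples were gravid adult hermaphrodites grown for 72 to 75 hours from synchronized first-stage larvae at 20 °C on Escherichia coli. The 3 wild-type adult libraries stand in 2 tables with equal values in 25921 of 25921 shared rows, so embryos and rde-1(ne219) adults are set against the same libraries, and the 47 columns hold 44 distinct libraries.

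Several labels were in doubt. Pyrophosphohydrolase, which makes triphosphorylated 22G-RNAs ligatable, is given as the treatment of the wild-type adult libraries in 1 table and not in the other, and the embryos are labelled untreated. In all, 10 libraries carry that label: those of wild-type and rde-1(ne219) adults and of the RDE-1 co-IPs and inputs that carry no RNAi label. The table of those RDE-1 libraries lists siRNAs against nrfl-1, at 40064 and 67322 RPM in the co-IPs and 359 and 385 RPM in the inputs, and against oma-1, at 1208 and 2131 RPM in the co-IPs and at most 12.2 RPM in the inputs, so the lack of an RNAi label does not show that these animals had no RNAi. In the RDE-1 libraries labelled nrfl-1 RNAi, a row of nrfl-1 siRNAs under another class name had 29654 to 34525 RPM in the co-IPs. It had 551 to 600 RPM in their inputs. Whether these sets of RDE-1 libraries differed in nrfl-1 RNAi is therefore not known. Column names add RDE-4::FLAG in the dcr-1 RNAi table and give ALG-1 an HA tag in the nrfl-1 RNAi table, so strain and tag are uncertain there. The column names of the dcr-1 RNAi table also call its libraries inputs, so these may be co-IP lysates, though they are called whole animals here. Another 3 columns, 1 of dcr-1 RNAi and 2 of the RDE-1 nrfl-1 RNAi inputs, could be matched to a group but not to 1 labelled sample. Nothing in the labels says that replicate libraries came from separate cultures, so p-values measure the spread between these libraries, which may be technical.

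Depth and composition set the scale of every value. Across libraries 1 RPM stood for 10.8 to 31.8 reads, and the summed RPM of a library ran from 379889 to 982594, which leaves part of the denominator outside the rows listed. That sum was 968020 to 982594 RPM in the ALG co-IPs on L4440 or rde-1 RNAi, and 379889 to 561857 RPM in their inputs. MicroRNAs made up 99.4% to 99.9% of the summed RPM in those co-IPs and 84.8% to 87.9% in their inputs, 62.1% to 74.4% in RDE-1 co-IPs with no RNAi label and 29.4% to 33.0% in their inputs. For the family rows, differences in log2 RPM were therefore also computed with each library centred on the median of its rows and with each library rescaled to the sum of its microRNA rows. Where a called direction of a family row turned round, this is named beside a result or in the closing list of values. Values of other named microRNAs are given in RPM only. In the co-IP comparisons the median log2 difference over all rows lay between -2.55 and -1.39, and centring moved the family rows up by 1.26 to 2.70. Ratios between members of the family within a library depend on none of these scales.

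Both 3p members were abundant microRNAs, while the fourth locus, mir-247, had low values, with its 5p arm near the limit of detection. miR-44-3p had between 1677 and 12611 RPM in the libraries and miR-61-3p between 819 and 8167 RPM. By mean RPM miR-44-3p ranked 21 of 439 microRNA rows in the ALG-1 co-IPs on L4440 and 23 in their inputs, while miR-61-3p ranked 43 in those co-IPs and 31 in the inputs. The 5p arms of miR-44, miR-45 and miR-61 lay between 3.85 and 359 RPM. miR-247-3p had at most 10.2 RPM, and miR-247-5p had at most 0.5 RPM and was listed at 0 in most libraries, too low to test. RPM is not divided by length here, since mature microRNAs are of nearly one length and each was read whole, but levels of different microRNAs also carry differences in how well each sequence was ligated.

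**Figure D1:**
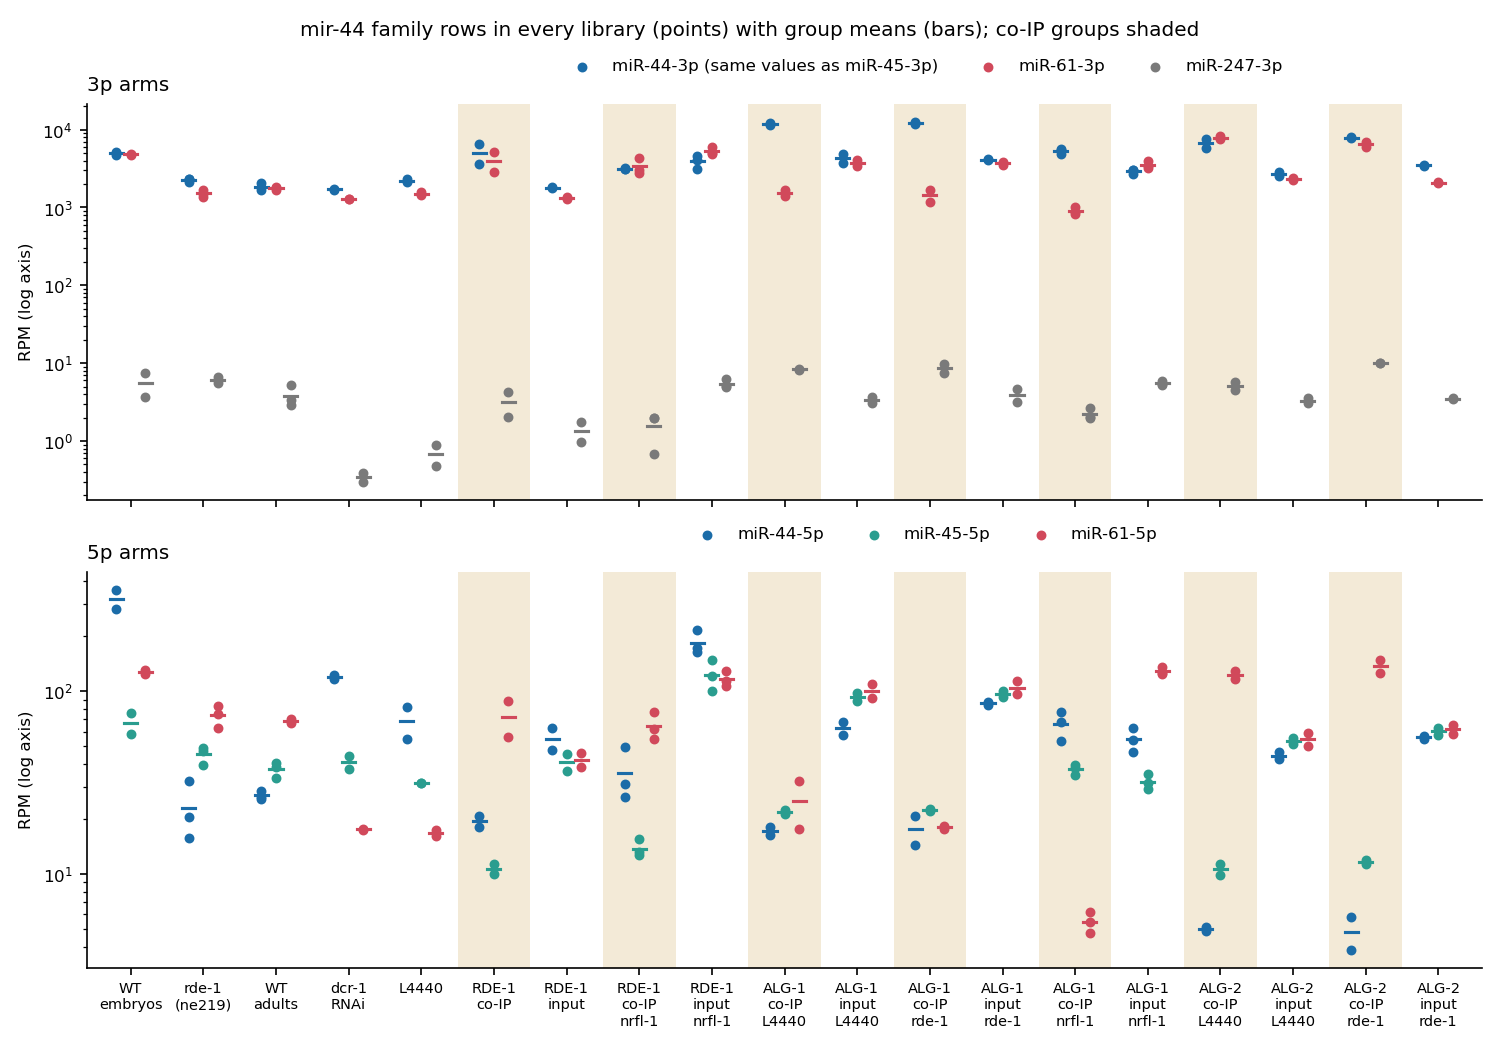
RPM of the family members (log10 axis) in every small RNA library, grouped by condition, with each point 1 library and each bar the group mean. miR-44-3p is shown as 1 row, which appears to hold only part of the reads of the sequence it shares with miR-45-3p. The rows of miR-44-3p and miR-61-3p lie near each other in inputs, whole animals and ALG-2 co-IPs, and apart in the ALG-1 co-IPs, where miR-61-3p had 819 to 1693 RPM and miR-44-3p 4798 to 12611 RPM.

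The 3p members parted in the ALG-1 co-IPs. On L4440, miR-61-3p had 1686 and 1387 RPM in the ALG-1 co-IPs, against 4101 and 3380 RPM in their inputs. miR-44-3p had 12319 and 11636 RPM in the same ALG-1 co-IPs, against 4878 and 3770 RPM in the inputs. So every co-IP library lay below both inputs for miR-61-3p and above both for miR-44-3p. The log2 difference of co-IP minus input was -1.28 ± 0.27 (SE) for miR-61-3p (limma adjusted p = 0.000460) and 1.48 ± 0.21 for miR-44-3p (limma adjusted p = 1.26e-05). Rescaled to microRNA rows, these values were -2.38 for miR-61-3p and 0.38 for miR-44-3p. With each library centred on its median the difference of miR-61-3p turned round, to 1.40, since centring moved every row there up by 2.68.

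On rde-1 RNAi miR-61-3p had 1693 and 1171 RPM in the ALG-1 co-IPs, against 3847 and 3497 RPM in the inputs, a log2 difference of -1.38 (limma adjusted p = 0.000247) that centring turned round to 1.30. miR-44-3p had 12611 and 11921 RPM there, against 4049 and 4139 RPM in the inputs, a difference of 1.58. Again neither pair of groups overlapped.

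The ratio of miR-61-3p to miR-44-3p within a library states this without any scale. It was -2.97 ± 0.14 on the log2 scale (SD, n = 2) in the ALG-1 co-IPs on L4440, against -0.20 ± 0.07 (SD, n = 2) in the inputs, a difference of -2.77. On rde-1 RNAi the ratio was -3.12 ± 0.32 (SD, n = 2) in the co-IPs, against -0.16 ± 0.12 (SD, n = 2) in the inputs, a difference of -2.96. A separately made table of ALG-1 on nrfl-1 RNAi gave -2.55 ± 0.08 (SD, n = 3) in the co-IPs, against 0.28 ± 0.16 (SD, n = 3) in the inputs, a difference of -2.83. All 7 ALG-1 co-IP libraries lay at -2.47 or below, and all 7 of their inputs at -0.25 or above. Exact permutation tests (two-sided) gave p = 0.1 for the comparison of 3 co-IPs with 3 inputs, the smallest p such a design allows, and p = 0.33 is the smallest with 2 against 2, so none of these ratio tests can pass 0.05. Over the 84 exact tests of within-library measures the lowest adjusted p was 0.444.

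In ALG-2 co-IPs the same ratio was above that of the inputs. It was 0.25 ± 0.19 (SD, n = 2) in the co-IPs on L4440, against -0.23 ± 0.17 (SD, n = 2) in the inputs, a difference of 0.48. On rde-1 RNAi it was -0.28 ± 0.12 (SD, n = 2) in the co-IPs, against -0.74 ± 0.03 (SD, n = 2) in the inputs, a difference of 0.46. Co-IPs and inputs did not overlap in either diet. The ALG-1 and ALG-2 libraries stand in separate tables, so the contrast between the Argonautes was not tested.

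**Figure D2:**
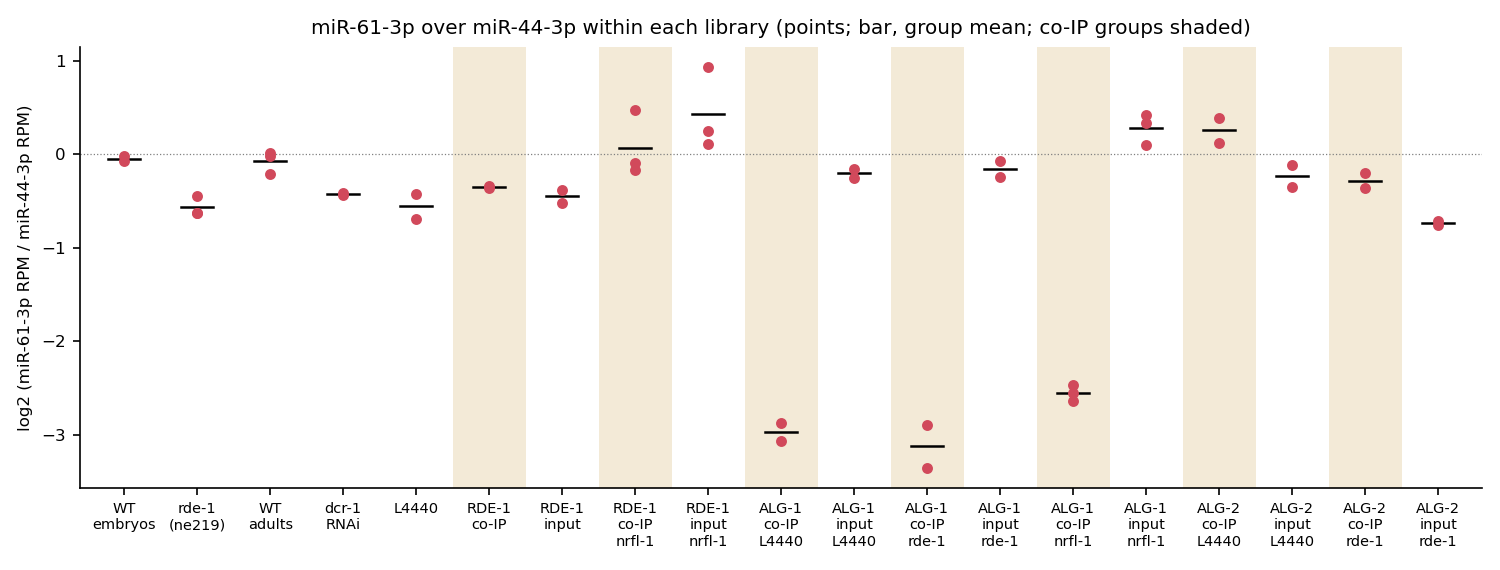
Log2 ratio of miR-61-3p to miR-44-3p within each library, by group, with each point 1 library and each bar the group mean. The 7 ALG-1 co-IP libraries lie between -3.35 and -2.47, below every other library shown, while ALG-2 co-IPs lie between -0.37 and 0.39.

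Both 3p members had more RPM in the ALG-2 co-IPs than in the inputs. On L4440 miR-61-3p had 7588 and 8167 RPM in the co-IPs, against 2256 and 2357 RPM in the inputs. miR-44-3p had 5789 and 7519 RPM in the co-IPs, against 2869 and 2546 RPM in the inputs. The co-IPs lay above the inputs for both, with a log2 difference of 1.77 ± 0.17 for miR-61-3p (limma adjusted p = 8.69e-09) and 1.29 ± 0.18 for miR-44-3p (limma adjusted p = 1.25e-06). Rescaled to microRNA rows, miR-61-3p kept a value of 0.25, which did not pass the test (limma adjusted p = 0.139), and miR-44-3p turned round to -0.23 (limma adjusted p = 0.215). The median microRNA had a log2 difference of 0.67 in both ALG-2 comparisons. On rde-1 RNAi miR-61-3p had 6918 and 6013 RPM in the ALG-2 co-IPs, against 2058 and 2106 RPM in the inputs, a log2 difference of 1.63. miR-44-3p had 7944 and 7746 RPM in those co-IPs, against 3488 and 3455 RPM in the inputs, a difference of 1.18 that again turned round under rescaling, to -0.26.

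The 5p arm of miR-61, its passenger, followed the 3p arm. On L4440 miR-61-5p had 32.4 and 17.6 RPM in the ALG-1 co-IPs, against 109 and 92.3 RPM in the inputs, a log2 difference of -2.03 ± 0.32 (limma adjusted p = 3.26e-05), which centring on the median of all rows turned round to 0.66. It had 117 and 128 RPM in the ALG-2 co-IPs, against 50.3 and 58.8 RPM in the inputs, a difference of 1.16 ± 0.23 (limma adjusted p = 9.59e-05), which rescaling to microRNA rows turned round to -0.35. On nrfl-1 RNAi miR-61-5p had 5.44, 4.73 and 6.15 RPM in the ALG-1 co-IPs, against 136, 125 and 126 RPM in the inputs, a log2 difference of -4.34 ± 0.25 (limma adjusted p = 1.19e-11).

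On nrfl-1 RNAi the 3p members of ALG-1 repeated the pattern in 3 libraries a group. miR-61-3p had 877, 819 and 1014 RPM in the co-IPs, against 3243, 3401 and 3985 RPM in the inputs, a log2 difference of -1.97 ± 0.19 (limma adjusted p = 6.33e-09). miR-44-3p had 5458, 4798 and 5611 RPM in the co-IPs, against 3027, 2709 and 2991 RPM in the inputs, a difference of 0.86 ± 0.16 (limma adjusted p = 4.25e-05). The groups did not overlap for either. Centring on the median of all rows took the value of miR-61-3p to 0.14.

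Among 211 microRNA rows tested in all 5 ALG comparisons, 10 (4.74%) were lower in the 3 ALG-1 comparisons and higher in both ALG-2 comparisons, and both arms of miR-61 were among them. The other 8 were miR-35-3p, miR-36-3p, miR-37-3p, miR-39-3p and miR-41-3p of the embryonic mir-35 family, with miR-58b-5p, miR-1829b-3p and miR-1829c-3p. The pair miR-44-3p and miR-45-3p was among 24 rows (11.4%) that were higher in all 5. These directions are those of the RPM values. Centring turns round those of miR-61-3p in the 3 ALG-1 comparisons and of miR-61-5p in 2 of them, not on nrfl-1 RNAi (-2.23), and rescaling turns round those of miR-61-5p and miR-44-3p in both ALG-2 comparisons. Rows outside the family were not followed under these scalings. Centring moved every row of the ALG-1 comparison on L4440 up by 2.68, and the lowest mir-35 family 3p row there stood at -2.42.

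**Figure D3:**
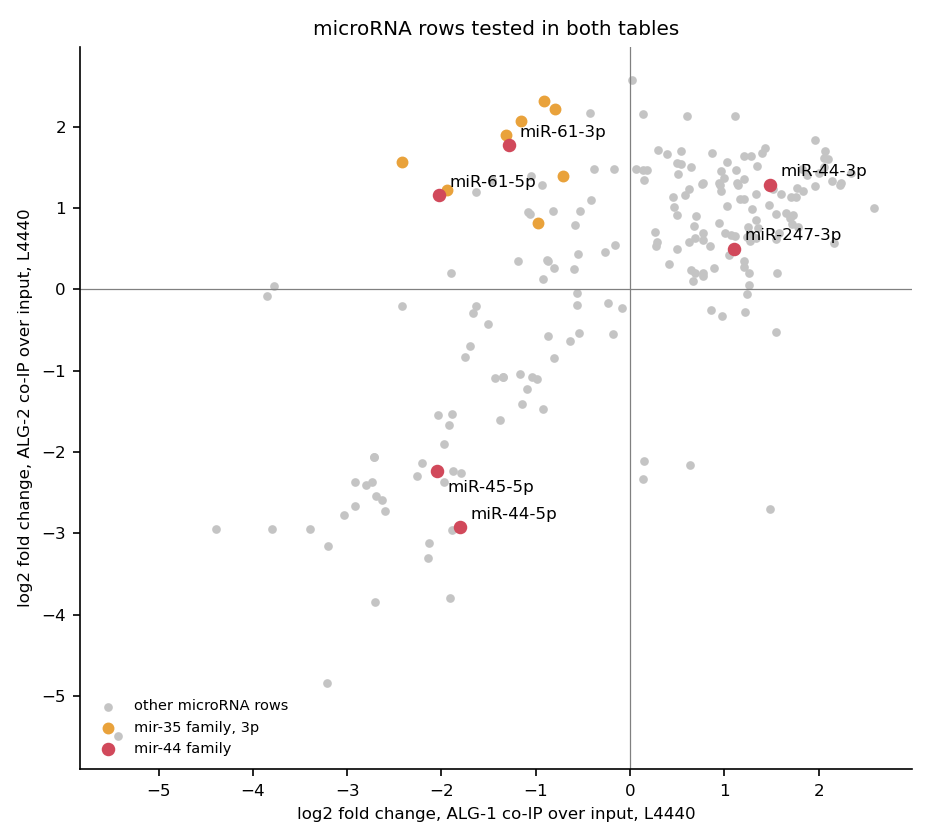
Log2 difference of co-IP minus input on L4440 for each microRNA row, ALG-1 on the x axis and ALG-2 on the y axis, with the family marked. miR-61-3p lies at -1.28 and 1.77 and miR-61-5p at -2.03 and 1.16, in the corner of rows lower with ALG-1 and higher with ALG-2 in RPM; centring on the median of all rows turns the ALG-1 values of miR-61 round, and rescaling to microRNA rows turns the ALG-2 values of miR-61-5p and miR-44-3p round.

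Of the 6 distinct rows of the family that passed the filter of a mean of 1 RPM, every one was called in the ALG-1 comparison on L4440, 2 higher and 4 lower. Calls were common there, at 98.5% of all rows tested, with 45.0% of microRNA rows higher and 37.4% lower. The same counts held on rde-1 RNAi, where 98.5% of all rows were called and 49.1% of microRNA rows were higher and 32.4% lower. On nrfl-1 RNAi 1 of 6 was higher and 3 were lower, with 97.5% of all rows called and 23.1% of microRNA rows higher and 50.7% lower. In the ALG-2 comparison on L4440 4 of 6 were higher and 2 lower, with 98.7% of all rows called and 58.7% of microRNA rows higher and 24.3% lower. On rde-1 RNAi ALG-2 gave the same counts, with 98.7% of all rows called and 59.2% of microRNA rows higher and 23.9% lower.

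The rarest member, miR-247-3p, moved differently between ALG-1 tables. It had 8.40 and 8.27 RPM in the ALG-1 co-IPs on L4440, against 3.62 and 3.09 RPM in the inputs, a log2 difference of 1.10 ± 0.21 (limma adjusted p = 0.000215). On nrfl-1 RNAi it had 2.68, 1.95 and 2.04 RPM in the co-IPs, against 5.28, 5.38 and 5.84 RPM in the inputs, a difference of -1.02 (limma adjusted p = 5.44e-05). Neither pair of groups overlapped, and the direction on nrfl-1 RNAi turned round, to 1.09, with centring. On rde-1 RNAi the log2 difference was 0.97, and rescaling to microRNA rows took it to -0.00056 there and to 0.20, without a call, on L4440. With ALG-2 on rde-1 RNAi miR-247-3p had a mean of 10.1 RPM in the co-IPs, against 3.48 RPM in the inputs. That log2 difference was 1.31 (limma adjusted p = 6.28e-07), and 0.09 without a call when rescaled. With ALG-2 on L4440 miR-247-3p had 4.54 and 5.69 RPM in the co-IPs, against 3.08 and 3.54 RPM in the inputs, and rescaling turned the log2 difference of 0.50 (limma adjusted p = 0.0105) round to -0.78. That call was also lost without co-IP 2 or without input 1.

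The neighbours of the family in the genome gave a comparison for each cluster. By the gene order of the RefSeq annotation (WBcel235), mir-61 lies within 1 kb of mir-250, mir-44 within 1 kb of mir-42 and mir-43, and mir-247 within 1 kb of mir-797, while mir-45 has no microRNA gene that close. miR-250-3p fell further than miR-61-3p in the ALG-1 co-IPs, with log2 differences of -3.85 on L4440, -3.91 on rde-1 RNAi and -5.18 on nrfl-1 RNAi. In the ALG-2 co-IPs miR-250-3p had a log2 difference of -0.09 on L4440 (limma adjusted p = 0.705). On L4440 miR-43-3p stood at -0.53 with ALG-1 and 0.96 with ALG-2, and miR-797-3p at 0.50 with each. miR-42-3p had log2 differences of -0.71 in the ALG-1 co-IPs on L4440 (limma adjusted p = 0.0365) and 1.40 in the ALG-2 co-IPs on L4440. The neighbours were not computed under the other scalings. Centring moved every row of the ALG-1 comparison on L4440 up by 2.68, which is more than this fall of miR-42-3p. Rescaling moved the family rows of the ALG-2 comparison on L4440 by -1.52 to -1.28.

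RDE-1 co-IPs with no RNAi label had higher RPM of both 3p members than their inputs. miR-44-3p had 6549 and 3588 RPM in the co-IPs, against 1820 and 1755 RPM in the inputs. miR-61-3p had 5107 and 2831 RPM in the co-IPs, against 1272 and 1345 RPM in the inputs. The first co-IP was the higher for both, and no co-IP overlapped the inputs. The log2 differences were 1.44 ± 0.31 for miR-44-3p (limma adjusted p = 0.00549) and 1.54 ± 0.30 for miR-61-3p (limma adjusted p = 0.00366), beside a median microRNA at 1.08. Rescaled to microRNA rows they came to -0.10 and 0.0023, a turn of direction for miR-44-3p. Summed over its rows, the family held 2.40% ± 0.64 (SD, n = 2) of microRNA RPM in the co-IPs, against 2.53% ± 0.19 (SD, n = 2) in the inputs, and these groups overlapped. miR-243-3p, the microRNA known to be carried by RDE-1, stood at a log2 difference of 6.56.

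The ratio of the 3p members was compared between RDE-1 co-IPs and inputs in both tables. With no RNAi label it was -0.35 ± 0.01 on the log2 scale (SD, n = 2) in the co-IPs, against -0.45 ± 0.09 (SD, n = 2) in the inputs. On nrfl-1 RNAi it was 0.07 ± 0.35 (SD, n = 3) in the co-IPs, against 0.43 ± 0.44 (SD, n = 3) in the inputs, with overlap (exact permutation p = 0.4). With no RNAi label, 3 of 6 rows tested were higher in the co-IPs and 2 lower, with 94.2% of all rows called and 67.3% of microRNA rows higher and 11.9% lower. The third higher row was miR-61-5p, with 88.9 and 56.1 RPM in the co-IPs, against 45.7 and 38.6 RPM in the inputs. Its log2 difference of 0.73 ± 0.24 (limma adjusted p = 0.0259) turned round to -0.78 under rescaling, and the call was lost without co-IP 1 or without input 2. The precursor rows, listed in this table only, followed the 3p members in RPM. Their log2 differences were 1.28 for mir-44 (limma adjusted p = 0.00428) and 1.33 for mir-45 (limma adjusted p = 0.00145). The mir-61 precursor row stood at 1.37 (limma adjusted p = 0.00402). The libraries were made from gel-selected small RNAs, so the precursor rows count short reads and not whole hairpins. These rows were not computed under the other scalings. Rescaling to microRNA rows moved the family rows of this comparison by -1.56 to -1.08.

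On nrfl-1 RNAi the RDE-1 co-IPs gave the family lower values than their inputs. miR-61-3p had 4323, 2797 and 2985 RPM in the co-IPs, against 6028, 4942 and 4808 RPM in the inputs, a log2 difference of -0.66 ± 0.22 (limma adjusted p = 0.0163) that centring turned round to 0.60. miR-44-3p had 3121, 3138 and 3191 RPM in the co-IPs, against 3161, 4573 and 4048 RPM in the inputs, a difference of -0.30 that did not pass the test (limma adjusted p = 0.191) and that centring turned round to 0.96. The groups overlapped for miR-44-3p and not for miR-61-3p. The call of miR-61-3p was lost without co-IP 2, co-IP 3 or input 1, and that of miR-61-5p (-0.84, limma adjusted p = 0.0249, centred 0.42) without co-IP 2, co-IP 3, input 2 or input 3. By limma 5 of 6 rows were lower and none was higher, also at an unadjusted p under 0.05, with 88.2% of all rows called and 27.9% of microRNA rows higher and 44.7% lower. The median microRNA stood at -0.48.

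The microRNA share of these libraries also ran the other way: 79.6% to 86.7% of summed RPM in the RDE-1 co-IPs on nrfl-1 RNAi and 96.0% to 97.4% in their inputs. miR-243-3p stood at a log2 difference of 6.91 in this table too. The part of the microRNA share in the lower values of the family was not tested.

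Passenger arms of miR-44 and miR-45 were depleted in most co-IPs. In the ALG-2 co-IPs on L4440 miR-44-5p had 4.85 and 5.10 RPM, against 42.5 and 46.5 RPM in the inputs, a log2 difference of -2.93 ± 0.22 (limma adjusted p = 1.06e-10), which centring took to -0.23 without a call. miR-45-5p had 9.88 and 11.3 RPM in those co-IPs, against 51.6 and 55.7 RPM in the inputs, a difference of -2.24 (limma adjusted p = 4.58e-09), which centring turned round to 0.46. No co-IP library came near an input. In the ALG-1 co-IPs on L4440 the values were -1.81 for miR-44-5p and -2.05 for miR-45-5p, which centring turned round to 0.88 and 0.64.

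With RDE-1 and no RNAi label, miR-44-5p had 20.8 and 18.1 RPM in the co-IPs, against 47.4 and 62.6 RPM in the inputs, a log2 difference of -1.45 ± 0.17 (limma adjusted p = 0.000439) that centring turned round to 0.33. miR-45-5p had 11.4 and 9.98 RPM in the co-IPs, against 36.8 and 45.2 RPM in the inputs, a difference of -1.84 ± 0.16 (limma adjusted p = 0.000112), which centring took to -0.07 without a call. On nrfl-1 RNAi RDE-1 co-IPs gave -2.38 for miR-44-5p and -3.06 for miR-45-5p. The exception was ALG-1 on nrfl-1 RNAi. There miR-44-5p had 67.9, 53.4 and 76.6 RPM in the co-IPs, against 46.8, 54.4 and 62.9 RPM in the inputs, which overlap, and its log2 difference of 0.26 did not pass the test (limma adjusted p = 0.350) and was -0.02 when rescaled.

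As a share of both arms, which needs no scale, the 3p arm was higher in co-IPs than in inputs, with no overlap, for miR-44 and for miR-45 in all 7 co-IP comparisons. For miR-44 it was 99.9% in the ALG-2 co-IPs on L4440, against 98.4% in the inputs. The smallest difference for miR-44 was with ALG-1 on nrfl-1 RNAi, at 98.8% in the co-IPs, against 98.2% in the inputs. For miR-61 the 3p share was higher without overlap in 6 of 7 comparisons, and it was 99.4% in the ALG-1 co-IPs on nrfl-1 RNAi, against 96.5% in the inputs. The exception was RDE-1 on nrfl-1 RNAi, at 98.1% in the co-IPs, against 97.8% in the inputs. Because reads of miR-44-3p and miR-45-3p cannot be told apart, the shares of these loci rest on the divided 3p reads. The share was not computed for microRNA loci outside the family, so these counts do not show a trait particular to it. Exact permutation tests of these shares cannot fall below p = 0.33 with 2 co-IPs and 2 inputs, or below 0.1 with 3 and 3.

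**Figure D4:**
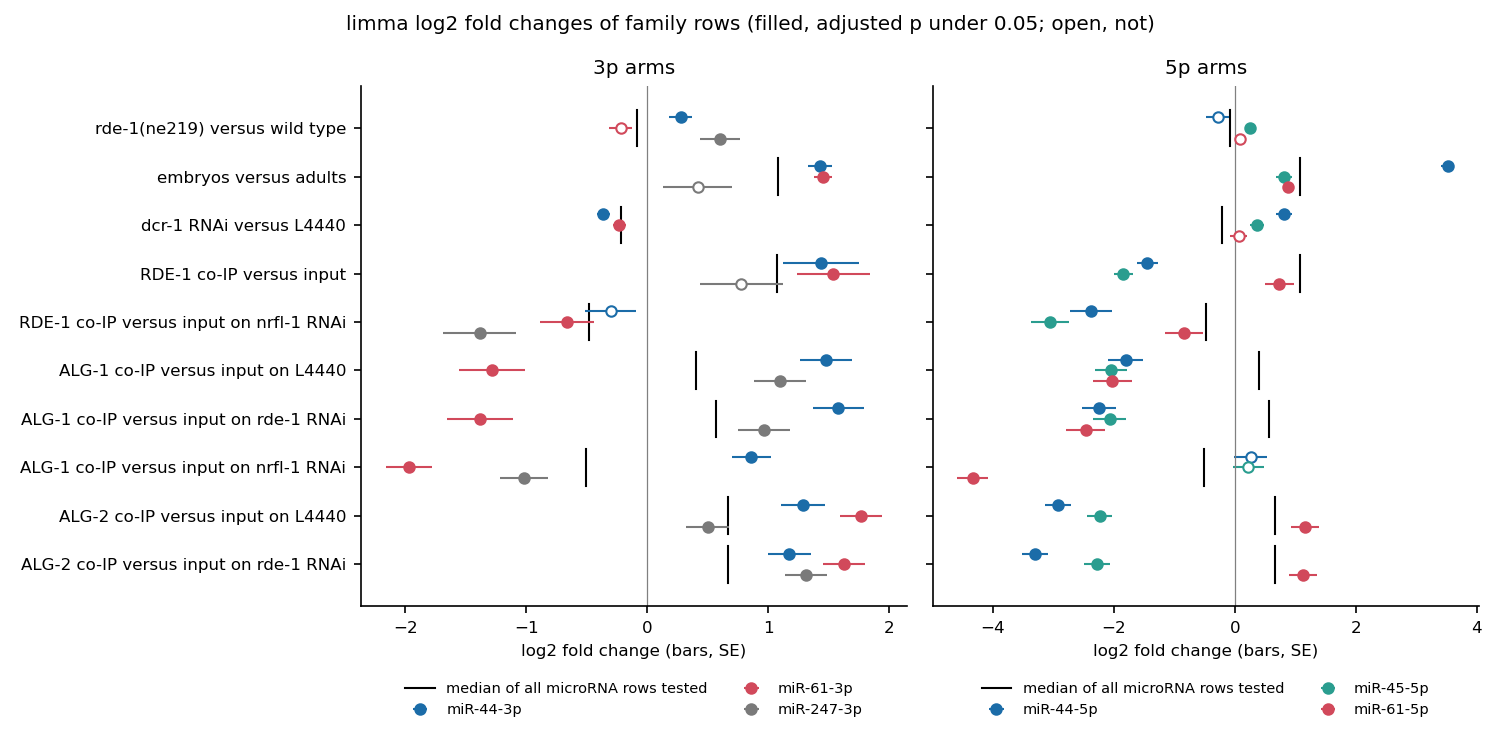
Log2 fold change of each family member in each comparison (x axis, first-named over second-named group, on log2(RPM + 1)), with bars of 1 SE, filled points for limma adjusted p under 0.05 and a black tick at the median of the microRNA rows. miR-61-3p and miR-61-5p lie below 0 with ALG-1 and above 0 with ALG-2, the 5p arms of miR-44 and miR-45 lie below 0 in the co-IP comparisons but ALG-1 on nrfl-1 RNAi, and miR-44-5p reaches 3.52 in embryos. Centring on the median of all rows turns the ALG-1 values of miR-61-3p and most low 5p values round, and rescaling to microRNA rows turns the ALG-2 values of miR-61-5p and miR-44-3p round.

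Embryos held more of the family than adults. miR-61-3p had 4720 and 4921 RPM in embryos, against 1784, 1837 and 1654 RPM in wild-type adults, a log2 difference of 1.46 ± 0.08 (limma adjusted p = 2.20e-06). miR-44-3p had 4783 and 5184 RPM in embryos, against 2059, 1825 and 1677 RPM in adults, a difference of 1.43 ± 0.10 (limma adjusted p = 8.50e-06). Each embryo library exceeded every adult library for both. Their ratio was -0.05 ± 0.04 on the log2 scale in embryos (SD, n = 2), against -0.07 ± 0.12 in adults (SD, n = 3), with overlapping libraries. In whole animals, more cells that make a microRNA and more of it per cell cannot be told apart.

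As a share of microRNA RPM the family held 4.29% ± 0.03 in embryos (SD, n = 2), against 2.68% ± 0.15 in adults (SD, n = 3), with no overlap. By limma 5 of 6 rows were higher and none was lower, also at an unadjusted p under 0.05, with 77.7% of all rows called and 58.4% of microRNA rows higher and 29.4% lower. The median microRNA stood at 1.09. The row without a call was miR-247-3p, with 7.39 and 3.70 RPM in embryos, against 2.88, 3.32 and 5.17 RPM in adults, where the groups overlap, and it passed the test without embryo library 2 (log2 difference 0.84, limma adjusted p = 0.0184). Its log2 difference of 0.42 became 1.09 with a call when centred (limma adjusted p = 0.00534) and -0.24 without one when rescaled. The stage labels fit their markers: let-7-5p, a microRNA of late larvae and adults, had 0.49 and 0.57 RPM in embryos, against 206, 150 and 150 RPM in adults. Of the 8 rows of the embryonic mir-35 family, 7 were higher in embryos, with a median log2 difference of 1.48 in RPM.

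The largest rise in the family with stage was that of miR-44-5p, in these RPM values. It had 283 and 359 RPM in embryos, against 25.8, 28.6 and 26.2 RPM in adults, a log2 difference of 3.52 ± 0.11 (limma adjusted p = 1.57e-07). miR-45-5p, the same arm of the other locus, had 58.0 and 76.0 RPM in embryos, against 38.6, 40.5 and 33.4 RPM in adults, a difference of 0.81 (limma adjusted p = 0.000682), which fell to 0.06 and lost its call when rescaled to microRNA rows. miR-61-5p had 131 and 125 RPM in embryos, against 66.9, 68.8 and 70.5 RPM in adults, a difference of 0.89 (limma adjusted p = 1.02e-05), which rescaling took to 0.12 without a call. So the 5p arms, which tell mir-44 and mir-45 apart where the 3p arm cannot, differed between the loci.

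The log2 ratio of miR-44-5p to miR-45-5p was 2.26 ± 0.03 in embryos (SD, n = 2), against -0.48 ± 0.12 in adults (SD, n = 3), a difference of 2.74 with an exact permutation p of 0.2, the smallest these group sizes allow. The 3p share of miR-44 was 94.4% and 93.5% in the embryo libraries, against 98.8%, 98.5% and 98.5% in the adults. For miR-45 and miR-61 the 3p share was instead higher in embryos, at 98.7% for miR-45, against 98.0% in adults, and at 97.4% for miR-61, against 96.2% in adults. The embryos and adults may also differ in pyrophosphohydrolase treatment, and its part in these differences was not tested.

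**Figure D5:**
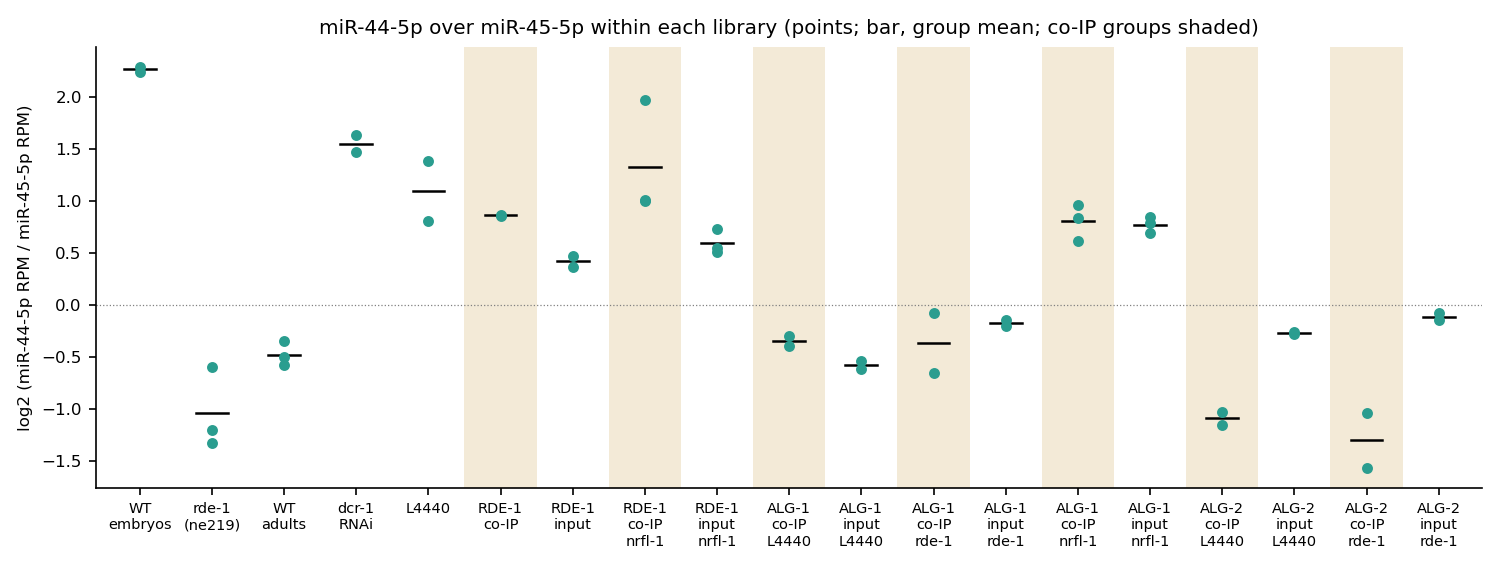
Log2 ratio of miR-44-5p to miR-45-5p within each library, by group, with each point 1 library and each bar the group mean. The embryo libraries stand at 2.24 and 2.29 and the wild-type adults between -0.58 and -0.35; ALG-2 co-IPs lie below their inputs, and RDE-1 co-IPs above theirs.

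Neighbouring microRNAs showed how far the clusters moved together with stage. miR-42-3p, beside mir-44, had 925 and 1028 RPM in embryos, against 125, 139 and 140 RPM in adults, a log2 difference of 2.85. miR-43-3p, of the same cluster, had 377 and 42.9 RPM in embryos, against 3.02, 1.96 and 6.97 RPM in adults, so its 2 embryo libraries were far apart. miR-250-3p, beside mir-61, went the other way from miR-61-3p, with 346 and 312 RPM in embryos, against 1005, 1022 and 1344 RPM in adults, a difference of -1.76.

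The ratio of the 5p arms also varied between co-IPs and inputs. With ALG-2 on L4440 the log2 ratio of miR-44-5p to miR-45-5p was -1.09 ± 0.09 (SD, n = 2) in co-IPs, against -0.27 ± 0.01 (SD, n = 2) in inputs. With RDE-1 and no RNAi label it was 0.86 ± 0.01 (SD, n = 2) in co-IPs, against 0.42 ± 0.08 (SD, n = 2) in inputs. On nrfl-1 RNAi RDE-1 gave 1.33 ± 0.56 (SD, n = 3) in co-IPs, against 0.60 ± 0.11 (SD, n = 3) in inputs. None of these pairs overlapped, whereas ALG-1 on nrfl-1 RNAi gave 0.81 ± 0.17 in co-IPs (SD, n = 3), against 0.77 ± 0.08 in inputs (SD, n = 3), with overlap. ALG-1 on rde-1 RNAi overlapped too, at -0.36 ± 0.41 (SD, n = 2) in co-IPs, against -0.17 ± 0.04 (SD, n = 2) in inputs. ALG-1 on L4440 was higher in co-IPs without overlap, at -0.35 ± 0.07 (SD, n = 2), against -0.58 ± 0.06 (SD, n = 2). ALG-2 on rde-1 RNAi was lower in co-IPs without overlap, at -1.30 ± 0.37 (SD, n = 2), against -0.11 ± 0.04 (SD, n = 2).

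dcr-1 RNAi, aimed at Dicer, went with slightly lower 3p members and higher 5p arms of miR-44 and miR-45 in RPM. The level of the dcr-1 transcript itself is not read by small RNA libraries, so the depth of the knockdown is not given here. miR-44-3p had 1695 and 1740 RPM on dcr-1 RNAi, against 2112 and 2305 RPM on L4440, a log2 difference of -0.36 ± 0.05 (limma adjusted p = 0.000379). miR-61-3p had 1273 and 1286 RPM on dcr-1 RNAi, against 1571 and 1431 RPM on L4440, a difference of -0.23 ± 0.06 (limma adjusted p = 0.0111). The groups did not overlap, but rescaling to microRNA rows turned both round, to 0.01 and 0.14, since microRNAs made up 32.9% to 34.7% of summed RPM on dcr-1 RNAi and 43.2% to 44.9% on L4440. The median microRNA stood at -0.21.

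miR-44-5p had 122 and 116 RPM on dcr-1 RNAi, against 54.9 and 82.1 RPM on L4440, a log2 difference of 0.82 ± 0.13 (limma adjusted p = 0.000649). miR-45-5p had 44.3 and 37.3 RPM on dcr-1 RNAi, against 31.4 and 31.4 RPM on L4440, a difference of 0.36 ± 0.11 (limma adjusted p = 0.0350), which centring took to 0.16 without a call (limma adjusted p = 0.399). Neither overlapped. The 3p share of miR-44 was 93.3% and 93.8% on dcr-1 RNAi, against 97.5% and 96.6% on L4440. Of 5 rows tested, 2 were higher and 2 lower, with 21.2% of all rows called and 13.0% of microRNA rows higher and 37.0% lower. All 4 calls were lost without the trend or without the filter on low rows. Without dcr-1 RNAi library 1 only miR-44-5p kept its call. The call of miR-61-3p was also lost without L4440 library 1 or dcr-1 RNAi library 3, and that of miR-45-5p without L4440 library 1 or 2.

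In rde-1(ne219) adults, which carry a mutant RDE-1, the 3p members shifted against each other by a small amount. miR-44-3p had 2122, 2310 and 2292 RPM in rde-1(ne219), against 2059, 1825 and 1677 RPM in wild type, a log2 difference of 0.28 ± 0.10 (limma adjusted p = 0.0307). miR-61-3p had 1374, 1496 and 1678 RPM in rde-1(ne219), against 1784, 1837 and 1654 RPM in wild type, a difference of -0.22 that did not pass the test (limma adjusted p = 0.0709). The groups did not overlap for miR-44-3p and did for miR-61-3p. With each library centred on its median the values were 0.12 for miR-44-3p, without a call, and -0.37 for miR-61-3p, with one. Their log2 ratio was -0.57 ± 0.10 (SD, n = 3) in rde-1(ne219), against -0.07 ± 0.12 (SD, n = 3) in wild type, with no overlap and an exact permutation p of 0.1, the smallest possible. Of the 8 3p rows of the embryonic mir-35 family, 8 were lower in rde-1(ne219), with a median log2 difference of -0.57. Whether the embryo content of these gravid adults differed was not tested.

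miR-247-3p had 6.13, 6.71 and 5.58 RPM in rde-1(ne219), against 2.88, 3.32 and 5.17 RPM in wild type, a log2 difference of 0.60 ± 0.16 (limma adjusted p = 0.00986). miR-45-5p had 49.0, 39.3 and 47.0 RPM in rde-1(ne219), against 38.6, 40.5 and 33.4 RPM in wild type, a difference of 0.26 ± 0.10 (limma adjusted p = 0.0441), with overlap. Centring took it to 0.10 (limma adjusted p = 0.463), and the call was also lost without the filter (limma adjusted p = 0.128) and without the trend (limma adjusted p = 0.0907). Without the filter that of miR-44-3p was lost too (limma adjusted p = 0.0723). By limma 3 of 6 rows were higher and none was lower (1, miR-61-3p, at an unadjusted p under 0.05), with 52.4% of all rows called and 13.2% of microRNA rows higher and 14.8% lower. The median microRNA stood at -0.08. The call of miR-44-3p was lost without wild-type library 2 or 3 or mutant library 2 or 3, that of miR-45-5p without wild-type library 1 or 3 or mutant library 1 or 3, and that of miR-247-3p without wild-type library 1. miR-61-3p passed the test without mutant library 3, and miR-44-5p (-0.28, limma adjusted p = 0.225) without mutant library 1. The family held 3.29% ± 0.12 (SD, n = 3) of microRNA RPM in rde-1(ne219), against 2.68% ± 0.15 (SD, n = 3) in wild type. This comparison shares its wild-type libraries with that of embryos.

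rde-1 RNAi, in contrast with the mutant, was measured only in the ALG-1 and ALG-2 strains. In the ALG-1 inputs miR-44-3p had 4049 and 4139 RPM on rde-1 RNAi, against 4878 and 3770 RPM on L4440, and in the ALG-2 inputs 3488 and 3455 RPM on rde-1 RNAi, against 2869 and 2546 RPM on L4440. No family row passed limma's test between the inputs (0 of 6 in each strain, and 0 at an unadjusted p under 0.05), against 0.287% of all rows for ALG-1 and 0.871% for ALG-2. The ratio of miR-61-3p to miR-44-3p in the ALG-2 inputs was -0.74 ± 0.03 on rde-1 RNAi (SD, n = 2), against -0.23 ± 0.17 on L4440 (SD, n = 2), without overlap. For ALG-1 inputs the ratios overlapped.

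Enrichment in the co-IPs was likewise compared between rde-1 RNAi and L4440. No family row passed limma's interaction test for ALG-1 (0 of 6, and 0 at an unadjusted p under 0.05), against 0.344% of all rows. For ALG-2 none of 6 passed, against 0.311% of all rows, and 1 had an unadjusted p under 0.05: miR-247-3p, with an interaction of 0.81 on the log2 scale (limma adjusted p = 0.443). With 2 libraries a group, these tests do not show that the enrichments were alike.

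Across the 44 distinct libraries, each table centred on its own mean, the microRNAs whose log2 RPM ran most like that of a member were listed from 144 rows with a mean of at least 10 RPM. For miR-44-3p they were miR-245-3p (Pearson's r = 0.909), miR-233-3p (0.905) and miR-49-3p (0.893). For miR-61-3p they were 3 members of the mir-35 family, miR-37-3p (r = 0.914), miR-39-3p (0.883) and miR-36-3p (0.876). For miR-61-5p they were miR-250-3p (r = 0.862), the 3p arm of its neighbour, and miR-37-3p (0.847) and miR-36-3p (0.836) of the mir-35 family. Those of miR-44-5p were miR-74-5p (r = 0.938), miR-39-5p (0.911) and miR-40-5p (0.891). Those of miR-45-5p were miR-81-5p (r = 0.918), miR-40-5p (0.877) and miR-54-5p (0.834). Within the family r was 0.855 between the arms of miR-61, 0.899 between miR-44-5p and miR-45-5p, and 0.107 between miR-44-3p and miR-61-3p. The libraries share tables, depth and composition, so these values describe the set and carry no test.

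Rows of 22G-RNAs, secondary siRNAs, were listed for the same loci in the wild-type and rde-1(ne219) table. That of mir-61 had 1.13, 0.90 and 0.48 RPM in rde-1(ne219), against 0.98, 0.83 and 0.75 RPM in wild type, so the groups overlapped. The rows of the other loci were at 0, apart from mir-44 at 0.07 RPM in 1 rde-1(ne219) library, which is below the 0.14 to 0.21 RPM that 3 reads make in these libraries.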

How the data were processed

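The deposited small RNA values are RPM, which the authors made in tinyRNA and their own Python code, per the series' design text. The RPM denominator, the aligner and the genome build are not given in the sources used here. Small RNAs of about 16 to 30 nt were gel-selected and ligated with the NEBNext kit, per the labels' protocols. The mRNA table was not used here. Depth was read from the step between low values: 72.9% to 93.9% of values up to 2 RPM lay on a step, too few for count tests.

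Each comparison was fitted over its whole table with limma 3.58.1 in R 4.3.3 (lmFit, eBayes with trend) on log2(RPM + 1), for rows with a mean of at least 1 RPM. P-values were two-sided, Benjamini-Hochberg adjusted over all rows, with a threshold of 0.05. Fold changes on this scale understate those of low rows. The 4 groups of a table with L4440 and rde-1 RNAi were fitted together. Pairs were otherwise fitted alone. A blank cell removed 1 row. Values were compared only within a table. Within-library ratios used exact permutation tests in Python 3.11.15 with scipy 1.17.1. The fit was tested on simulated data for RDE-1 with no RNAi label and on nrfl-1 RNAi, for ALG-1 on L4440, for rde-1(ne219) and for embryos. The other comparisons, those of ALG-2 and dcr-1 RNAi among them, were not simulated.

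Named members were all rows of the family, its neighbours, the mir-35 family and stage microRNAs. The members and lists were chosen with earlier results of these data known. Alternatives were another pseudocount, no filter, 2 scalings, no trend, only the groups compared, the replicate block and each library left out.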

Additional observations from a re-analysis of the deposited data

Results flagged for a closer look

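Differences between groups under the same contrast were noted where every library of one group moved one way and every library of the other the opposite way. The groups stand in different tables, so none of these differences was tested.

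On L4440 the co-IP minus input difference of miR-61-3p was -1.28 with ALG-1 and 1.77 with ALG-2, and on rde-1 RNAi it was -1.38 and 1.63. For miR-61-5p the values were -2.03 with ALG-1 and 1.16 with ALG-2 on L4440, and -2.47 and 1.14 on rde-1 RNAi. Centred, the ALG-1 values of miR-61-3p and miR-61-5p on these diets were above 0 (0.21 for miR-61-5p on rde-1 RNAi), and rescaled, the ALG-2 values of miR-61-5p were below 0. The difference in the log2 ratio of miR-61-3p to miR-44-3p was -2.77 with ALG-1 and 0.48 with ALG-2 on L4440, and -2.96 and 0.46 on rde-1 RNAi.

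With ALG-1, miR-247-3p stood at -1.02 on nrfl-1 RNAi, or 1.09 centred, and at 1.10 on L4440. With RDE-1, miR-61-3p stood at -0.66 on nrfl-1 RNAi and at 1.54 with no RNAi label, where the table also lists siRNAs against nrfl-1 and oma-1. Centring took the first value to 0.60 and rescaling the other to 0.0023. miR-247-3p stood at -1.38 and 0.78 in these RDE-1 comparisons. The 0.78 did not pass limma's test (adjusted p = 0.0712) and was -0.30 rescaled, and the -1.38 was -0.12 without a call when centred. The 0.78 did pass when centred (2.55, limma adjusted p = 0.00252) and with the replicate block (limma adjusted p = 0.00595), and it was 1.18 without co-IP 2. miR-61-5p stood at -0.84, or 0.42 centred, and at 0.73, or -0.78 rescaled. The RDE-1 libraries with no RNAi label are labelled as treated with pyrophosphohydrolase and those on nrfl-1 RNAi are not.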

How the results depend on the processing

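Of 83 tested member values, 16 that were called before or after turned round with centring and 10 with rescaling, beside 4 and 8 without a call in either. None turned round under a pseudocount of 0.1, without the filter, without the trend, with only the groups compared or with the replicate block. Leaving out 1 library turned round 26 of 422 values, none of them called. The cause was not tested beyond the shift that each scaling applies. Rescaled to microRNA rows, RDE-1 gave -0.10 for miR-44-3p and -0.78 for miR-61-5p, dcr-1 RNAi 0.0096 for miR-44-3p and 0.14 for miR-61-3p, and ALG-1 on rde-1 RNAi -0.00056 for miR-247-3p. ALG-2 on L4440 gave -0.23 for miR-44-3p, -0.78 for miR-247-3p and -0.35 for miR-61-5p, and on rde-1 RNAi -0.26 for miR-44-3p and -0.29 for miR-61-5p.

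Centred on the median of all rows, RDE-1 gave 0.33 for miR-44-5p. ALG-1 on L4440 gave 1.40 for miR-61-3p, 0.88 for miR-44-5p, 0.64 for miR-45-5p and 0.66 for miR-61-5p, on rde-1 RNAi 1.30, 0.44, 0.61 and 0.21 for the same rows, and on nrfl-1 RNAi 0.14 for miR-61-3p and 1.09 for miR-247-3p. ALG-2 gave 0.46 on L4440 and 0.41 on rde-1 RNAi for miR-45-5p. RDE-1 on nrfl-1 RNAi gave 0.96 for miR-44-3p, 0.60 for miR-61-3p and 0.42 for miR-61-5p.

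Counts of family rows called also moved. Rescaled, RDE-1 had 3 calls in place of 5 (2 kept, 1 opposite), ALG-2 on L4440 3 in place of 6 (2 kept, 1 opposite), ALG-2 on rde-1 RNAi 2 in place of 6 and embryos 3 in place of 5 (all kept). Centred, RDE-1 on nrfl-1 RNAi had 3 in place of 5 (2 kept, 1 other). For rde-1(ne219) the 3 calls became 1 without the filter and 1 with the replicate block, and 1 to 3 without 1 library. For dcr-1 RNAi the 4 calls became 0 without the filter, 0 without the trend, and 1 to 3 without 1 library. For RDE-1 5 calls became 4 to 6, and on nrfl-1 RNAi 3 to 5, without 1 library. No paired analysis was possible because the groups share fewer than 2 labelled numbers for dcr-1 RNAi and for RDE-1 on nrfl-1 RNAi, where 2 input columns matched a group but no labelled sample. Elsewhere the deviations of libraries with the same number correlated at -0.25 to 0.32. With 2 libraries a group the check gives the same value for both numbers, so it cannot show whether co-IP and input were paired. The main fits left such pairing out, and the replicate block is the alternative that includes it.

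As a share of all rows instead of microRNA rows, the family differed by 0.0915 percentage points for rde-1(ne219), 0.879 for RDE-1, -0.204 for dcr-1 RNAi, 0.207 and 0.262 for ALG-1 on L4440 and rde-1 RNAi, 0.204 and 0.0793 for ALG-2, -0.575 and 0.0763 for RDE-1 and ALG-1 on nrfl-1 RNAi, and 1.34 for embryos. A pseudocount of 1 took the ALG-2 difference in miR-44-5p over miR-45-5p on L4440 to -0.69. Over all rows the 1632 calls for dcr-1 RNAi became 31 without the filter, 9 without the trend, 798 centred, 5199 rescaled and as few as 94 without 1 library. Centred, the totals were 3210 in place of 8520 for RDE-1, 1564 in place of 2819 for RDE-1 on nrfl-1 RNAi and 2455 in place of 3701 for ALG-1 on nrfl-1 RNAi. At 10.8 to 31.8 reads per RPM, depth limits both arms of miR-247.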
